A study of Mus musculus with 16 samples.

Results

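Mouse hepatic stellate cells activated on plastic were set against stellate cells activated inside a fibrotic liver. The comparison is the mean of the 3 culture arrays minus the average of the bile duct ligation mean and the carbon tetrachloride (CCl4) mean, 3 arrays each, so it uses 9 of the 16 arrays of the series and weighs both injuries equally. All arrays measured RNA of cells from male Balb/c mice aged 8 to 10 weeks, purified by density centrifugation followed by magnetic removal of macrophages through their surface protein F4/80. Culture cells came from uninjured mice and were kept for 5 days on plastic in medium with 10% fetal bovine serum. Bile duct ligation cells came from mice whose common bile duct had been tied for 15 days, a model of biliary fibrosis, and were plated for 24 h before lysis. CCl4 cells came from mice given 4 intraperitoneal injections of CCl4 at 0.5 µl per g body weight, a model of toxic fibrosis, and were likewise plated for 24 h. Quiescent cells from uninjured mice, plated for 24 h (5 arrays), are given last as the common starting point, and the 2 coculture arrays were not used. Days in the dish and route of activation differ together between the sides and cannot be told apart, and every in vivo sample also spent its last day on plastic. Whether preparations of a group came from different mice is not stated, so the p-values reflect the spread of these samples, which may be technical.

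Stellate cells store retinyl esters in lipid droplets next to the liver sinusoids and, when the liver is injured, turn into contractile, collagen-secreting myofibroblasts. This activation can be set off by serum and stiff plastic alone, which made the cultured stellate cell the usual laboratory model of liver fibrosis. In the injured liver the same cells also meet dying hepatocytes, bile acids, inflammatory cells and a changing matrix.

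Values are log2 expression values, on which a difference of 1 is a 2-fold difference. Unexpressed probe sets lie near log2 2, where the level depends on the estimated background, so the size of any difference with one side near that level does too. A gene is called when its Benjamini-Hochberg adjusted p from limma, a linear model fitted across all 7713 genes tested, was under 0.05. Of 18193 genes, each array had 6777 to 7017 at log2 5 or more. Across the tested genes, Pearson correlations were 0.943 to 0.981 among culture arrays, 0.967 to 0.974 among bile duct ligation arrays and 0.971 to 0.983 among CCl4 arrays. Culture arrays correlated with bile duct ligation arrays at 0.791 to 0.863 and with CCl4 arrays at 0.785 to 0.871, while bile duct ligation and CCl4 arrays correlated with each other at 0.936 to 0.968.

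The stellate identity of the cells was checked on 14 markers, of which 13 reached log2 5 on each culture array, 12 or 13 on each bile duct ligation array and 12 on each CCl4 array. Their summed linear level was 22600 to 36200 on culture arrays, 12400 to 15900 on bile duct ligation arrays, 8320 to 13300 on CCl4 arrays and 17300 to 27800 on quiescent arrays. Neutrophil, dendritic and B cell, and T and NK cell markers reached log2 5 on no array. Among 26 macrophage and Kupffer cell markers, 1 or 2 reached log2 5 on culture arrays and 2 to 4 on in vivo arrays, with summed levels of 260 to 374 in culture, 329 to 1140 after bile duct ligation and 323 to 825 after CCl4. CCl4 replicate 3 stood apart. Of 23 hepatocyte markers, 1 reached log2 5 on each culture array, against 13 on CCl4 replicate 3 and 2 or 3 on each of the other in vivo arrays. The summed level of 12 cholangiocyte and epithelial markers was 38.9 to 51.7 on culture arrays, against 1870 on CCl4 replicate 3 and 222 to 438 on the other in vivo arrays. Krt8 and Krt18 carried that sum, at log2 9.56 and 9.96 on CCl4 replicate 3, where Cdh1 read 6.40. The cholangiocyte markers Krt7, Krt19, Epcam and Sox9 stayed near background, with group means of log2 1.33 to 2.81. Krt8 is also counted among the mesothelial markers. Endothelial markers summed to 636 to 1130 on culture arrays, 531 to 725 after bile duct ligation and 341 to 588 after CCl4, and mesothelial markers to 115 to 151 on culture arrays, 228 to 284 after bile duct ligation and 264 to 1450 after CCl4. The endothelial sum was carried by Eng, also a TGF-beta coreceptor, with a culture mean of log2 9.49. Pecam1, Cdh5 and Kdr had culture means of 1.27, 1.48 and 1.46. Cdh5 and Emcn were highest on bile duct ligation replicate 2, at 3.91 and 4.88. Erythroid and platelet markers summed to 26.4 to 37.9 on culture arrays, 67.2 to 103 after bile duct ligation and 84.0 to 105 after CCl4. That difference came from Pf4, with means of log2 3.67 in culture, 6.06 after bile duct ligation and 6.21 after CCl4. Hba-a1, Alas2, Ppbp and Gp9 were near background in every group. Culture replicate 3 also stood apart from culture replicates 1 and 2 in interferon and inflammatory genes, described with those genes. In bulk RNA, fewer cells of a type and less RNA per cell cannot be told apart.

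**Figure D1:**
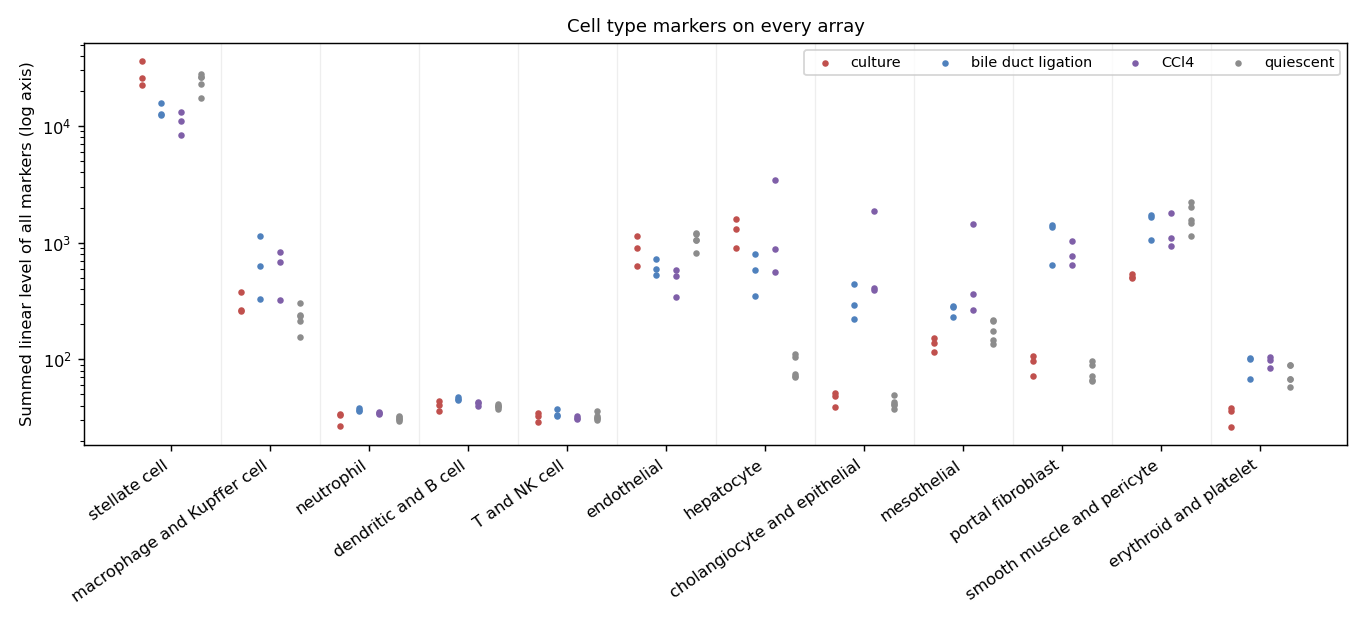
Summed linear level of each list of cell type markers (log axis), 1 point per array, for culture, bile duct ligation, CCl4 and quiescent arrays. Stellate markers lay at 22600 to 36200 in culture, against 8320 to 15900 on in vivo arrays, and CCl4 replicate 3 is the highest point for hepatocyte (3440), epithelial (1870) and mesothelial (1450) markers.

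Culture and in vivo activation differed in 3947 of 7713 genes (51.2%), of which 1929 were higher in culture (25.0%) and 2018 lower (26.2%). The difference was at least 2-fold for 1615 called genes (20.9%). The median difference over all genes was -0.02, so changes are read without further centring. Culture differed from bile duct ligation in 3543 genes (45.9%) and from CCl4 in 3348 genes (43.4%), 2 comparisons that share the culture arrays. Of the 1929 genes higher in culture, 1287 were called against both injuries, as were 1391 of the 2018 lower ones. The direct test between the injuries called only 10 genes (0.130%), with 1075 at an unadjusted p under 0.05. All 3 culture arrays lay above all 6 in vivo arrays for 1695 genes (22.0%) and below them for 1766 genes (22.9%). Without culture replicate 3 the number of called genes was 3235, without CCl4 replicate 3 it was 3677, and without both CCl4 replicate 3 and bile duct ligation replicate 2, the array with the highest macrophage sum, it was 3439.

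Quiescent cells show on which side of the starting point culture and in vivo cells fell. The quiescent mean lay between the culture and in vivo means for 1368 of the 1929 genes higher in culture and for 1208 of the 2018 lower ones. It lay below both means for 396 of the higher genes, where culture was the further from quiescent, and above both for 649 of the lower genes. A narrower count took only genes where both injuries lay on the same side of quiescent as culture. Of all genes tested, 102 (1.32%) were of this kind and at least 2-fold further above quiescent in culture than after either injury. Likewise 94 (1.22%) were at least 2-fold further below it. Genes that either injury moved the other way are not in these counts.

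**Figure D2:**
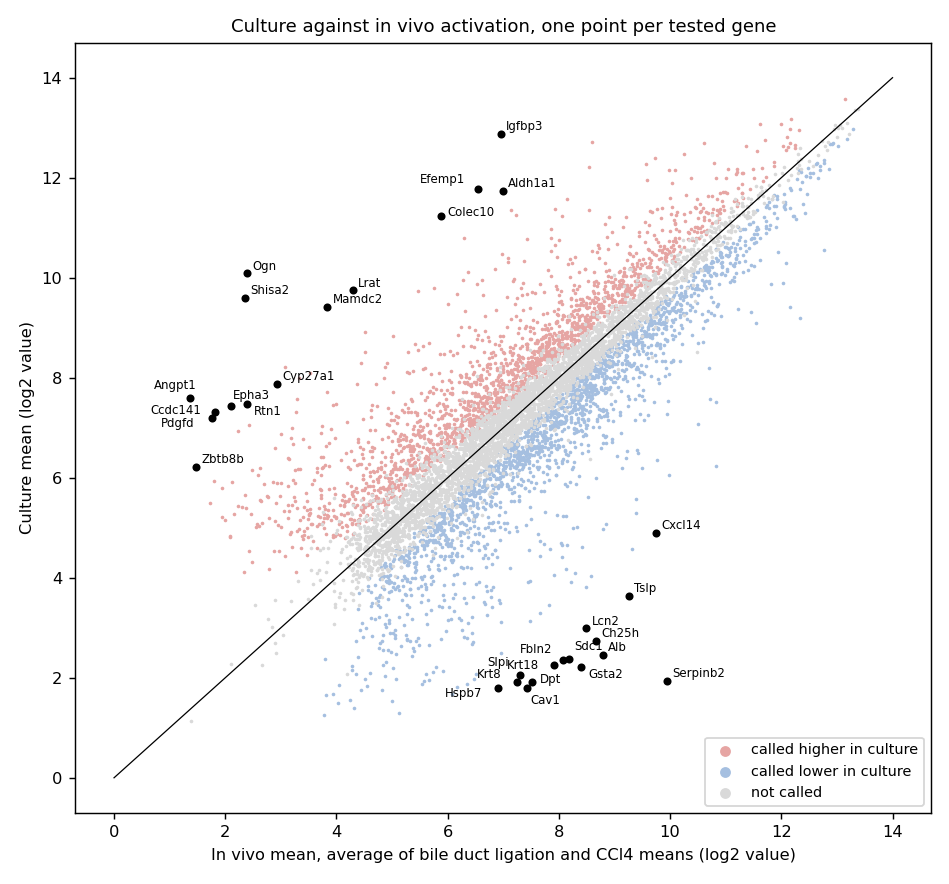
Culture mean (vertical, log2 value) against in vivo mean (horizontal, log2 value) for each of the 7713 tested genes, with called genes coloured, the line of equal level and the 30 named genes with the largest differences in black. Igfbp3 (12.88 in culture, 6.95 in vivo) lies far above the line at high expression, while the 15 genes furthest below it had culture means under log2 5.

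The 15 genes furthest above in culture were Ogn, Shisa2, Angpt1, Igfbp3, Mamdc2, Ccdc141, Lrat, Pdgfd, Colec10, Epha3, Efemp1, Rtn1, Cyp27a1, Aldh1a1 and Zbtb8b, with differences of 4.74 to 7.69. For 11 of them the in vivo mean was below log2 5. Igfbp3, a secreted carrier of insulin-like growth factors, read 12.98, 12.74 and 12.93 in culture, 6.45, 6.90 and 6.79 after bile duct ligation, 7.02, 7.28 and 7.28 after CCl4 and 6.99 ± 0.44 on average in quiescent cells (SD, n = 5). Its in vivo arrays thus sat at the quiescent level and every culture array was far above them, a difference of 5.93 ± 0.20 (SE; adjusted p = 2.61e-10), or 61.0-fold. Ogn, the small leucine-rich proteoglycan osteoglycin, read 9.37, 9.14 and 11.75 in culture, 2.01, 2.02 and 2.63 after bile duct ligation, 2.84, 2.10 and 2.75 after CCl4 and 2.19 to 2.84 in quiescent cells. Only the culture arrays were above background for Ogn (difference 7.69 ± 0.46, adjusted p = 3.92e-08). Ogn was thus tested only because culture was high, and it had to differ. Efemp1, a fibulin of the extracellular matrix, read 11.84, 11.61 and 11.90 in culture, 6.65, 5.36 and 7.06 after bile duct ligation and 6.68, 6.83 and 6.69 after CCl4, with quiescent cells in between at 8.03 to 9.51 (difference 5.24 ± 0.34, adjusted p = 9.78e-08).

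The 15 genes furthest below in culture were Serpinb2, Alb, Gsta2, Ch25h, Sdc1, Fbln2, Krt18, Cav1, Tslp, Dpt, Lcn2, Krt8, Slpi, Hspb7 and Cxcl14, with differences of -8.00 to -4.83, and all 15 had culture means below log2 5. Serpinb2, an intracellular inhibitor of plasminogen activators, read 1.78, 2.63 and 1.41 in culture, 9.94, 10.71 and 8.94 after bile duct ligation, 10.19, 9.76 and 10.10 after CCl4 and 4.78 to 9.39 in quiescent cells. It was at background in culture only (difference -8.00 ± 0.71, adjusted p = 1.12e-06). Ch25h, which makes 25-hydroxycholesterol, read 2.65, 3.04 and 2.53 in culture, 7.94, 7.97 and 7.35 after bile duct ligation and 10.07, 9.49 and 9.13 after CCl4 (difference -5.92 ± 0.76, adjusted p = 2.56e-05). Cav1, the main coat protein of caveolae, read 1.72, 1.87 and 1.79 in culture, 6.87 to 8.33 after bile duct ligation, 7.39, 6.73 and 8.24 after CCl4 and 1.55 to 2.70 in quiescent cells (difference -5.63 ± 0.37, adjusted p = 9.78e-08). Culture and quiescent cells shared that low Cav1 signal, while Cav2, which encodes its partner protein, had means of 6.30 in culture, 6.71 after bile duct ligation and 5.63 after CCl4 and was not called. Cav1 was thus tested only because the in vivo arrays were high, and it had to differ.

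Several of these lower genes mark other liver cells. Alb, the hepatocyte's albumin, read 2.03, 3.30 and 2.04 in culture, 8.25 ± 0.84 on average after bile duct ligation (SD, n = 3) and 7.94, 9.26 and 10.79 after CCl4. Krt18, a keratin of epithelial cells, read 2.40, 2.58 and 1.79 in culture, 7.82, 7.03 and 6.96 after bile duct ligation and 7.87, 7.80 and 9.96 after CCl4. Both were at background in culture and well above it on all 6 in vivo arrays, highest on CCl4 replicate 3. Without that array the differences were -5.97 for Alb, -5.30 for Krt18 and -4.88 for Krt8, against -6.33, -5.65 and -5.32 with it. Krt18 and Krt8 passed the level filter only through the in vivo arrays. The hepatocyte list as a whole did not move one way: of its 3 tested members Alb and Ttr, which passed the filter only through the in vivo arrays, were lower in culture, while Serpina1b, an alpha-1-antitrypsin gene with near-identical copies that array probes may not separate, was higher at 10.26, 9.67 and 10.57 in culture, against 6.19 to 6.93 after bile duct ligation and 6.59 to 7.72 after CCl4. Of 14 portal fibroblast markers 4 were tested (Fbln2, Dpt, Mgp and Col15a1), and as these 4 passed the level filter only through the in vivo arrays, their lower level in culture is a description. The summed level of the 14 was 72.3 to 106 in culture, 648 to 1410 after bile duct ligation, 642 to 1040 after CCl4 and 65.6 to 95.9 in quiescent cells. These marker levels move with the comparison, and their part in the other gene groups was not tested.

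Gene groups are described by how many tested members were called, to be read against 25.0% higher and 26.2% lower among all genes. The lists held 8 to 33 tested members, out of 17 to 43 asked for. A gene that reached log2 5 on 2 arrays only through the side where it is high had to differ, which was so for 163 of the 1929 higher and 157 of the 2018 lower genes. Lists held at most 3 such members in either direction, namely 3 of the 4 lower elastic fibre genes (Fbln2, Ltbp1 and Ltbp2), 3 of the 8 higher growth factor genes (Angpt1, Pdgfd and Vegfd) and 3 of the 15 lower cell cycle genes (Top2a, Mki67 and Ccna2). Further such members among the higher genes were Ogn, Lama1, Bbc3, Mx2, Mgst3 and Ctsf. Among the lower genes they were Vcan, Col15a1, Loxl1, Pcolce2, Mmp12, Mmp19, Cnn1, Lmod1, Itga6, Cav1, Grem1, Cxcl5, Tnfaip3, Hpx, Egln3, Scd1 and Ctss. Differences and p-values of all these members are descriptions. The plot of called shares by gene list orders them from mostly higher to mostly lower in culture.

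**Figure D3:**
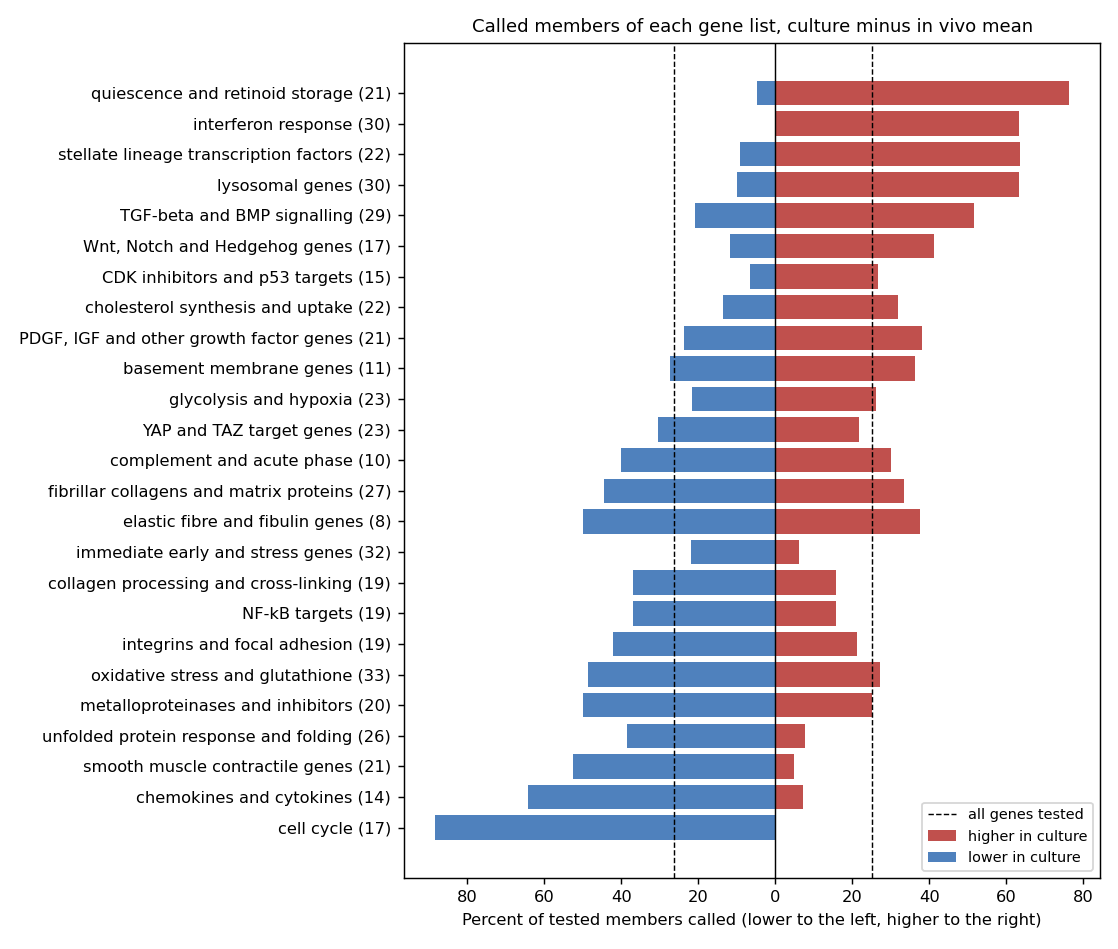
Percent of the tested members of each gene list called higher in culture (bars to the right) or lower in culture (bars to the left), with the number tested in brackets and dashed lines at 25.0% and 26.2%, the shares over all genes tested. Quiescence and retinoid storage genes reach 76.2% higher, and cell cycle genes 88.2% lower.

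Canonical activation markers differed in part. Of 25 genes commonly used to follow stellate activation or quiescence, 21 were tested, 5 were higher in culture, 5 lower and 11 not called, shares close to those of all genes. Acta2, the smooth muscle actin of myofibroblasts, read 13.12, 12.89 and 12.42 in culture, 13.10, 12.98 and 13.13 after bile duct ligation, 12.77, 13.09 and 12.95 after CCl4 and 11.20 to 12.00 in quiescent cells. Culture and in vivo arrays overlapped and lay above all quiescent arrays (difference -0.19 ± 0.18, adjusted p = 0.382). The probe sets of Acta2 disagreed, and with all of them averaged the gene was called lower in culture (-0.82, adjusted p = 0.00104). Lox, a collagen cross-linking oxidase, was not called either, with 10.32, 9.92 and 9.85 in culture, 10.12, 9.96 and 9.78 after bile duct ligation, 9.07, 8.77 and 9.19 after CCl4 and only 3.53 to 5.05 in quiescent cells (difference 0.55 ± 0.28, adjusted p = 0.123). Des, Vim, Ccn2, Col3a1, Tgfb1, Mmp2, Reln, Cygb and Ccl2 were also not called, with differences of -0.55 to 0.57. Lox, Mmp2, Vim, Tgfb1, Col3a1 and Ccn2 were each called under at least 1 alternative setting. Postn, the matrix protein periostin, was lower in culture (-0.69).

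Type I collagen, the main fibre of liver scars, was lower in culture. Col1a1 read 9.23, 8.88 and 9.16 in culture, 11.88, 12.15 and 12.61 after bile duct ligation, 10.81, 11.01 and 10.76 after CCl4 and 7.96 ± 0.82 on average in quiescent cells (SD, n = 5). The culture arrays lay below all in vivo arrays (difference -2.45 ± 0.33, adjusted p = 4.22e-05, 5.47-fold lower) and within or just above the quiescent range. Col1a2, the partner chain, read 9.59, 9.80 and 10.23 in culture, 11.94, 12.28 and 12.21 after bile duct ligation and 11.87, 11.45 and 11.17 after CCl4 (difference -1.95 ± 0.22, adjusted p = 7.21e-06). Its quiescent arrays, at 8.07 to 9.12, all lay below the culture arrays (1.12 for culture minus quiescent, adjusted p = 0.00115 by limma). Timp1, which inhibits metalloproteinases, read 8.29, 9.07 and 5.16 in culture, 11.05, 11.24 and 11.23 after bile duct ligation and 10.61, 10.24 and 10.57 after CCl4. Its difference of -3.32 ± 0.62 (adjusted p = 0.000555) depended on culture replicate 3, without which it was -2.14 and still called. Mmp13, a collagenase, was also lower in culture (difference -3.81 ± 0.93, adjusted p = 0.00348) and spread widely there, at 5.00, 7.11 and 2.85.

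**Figure D4:**
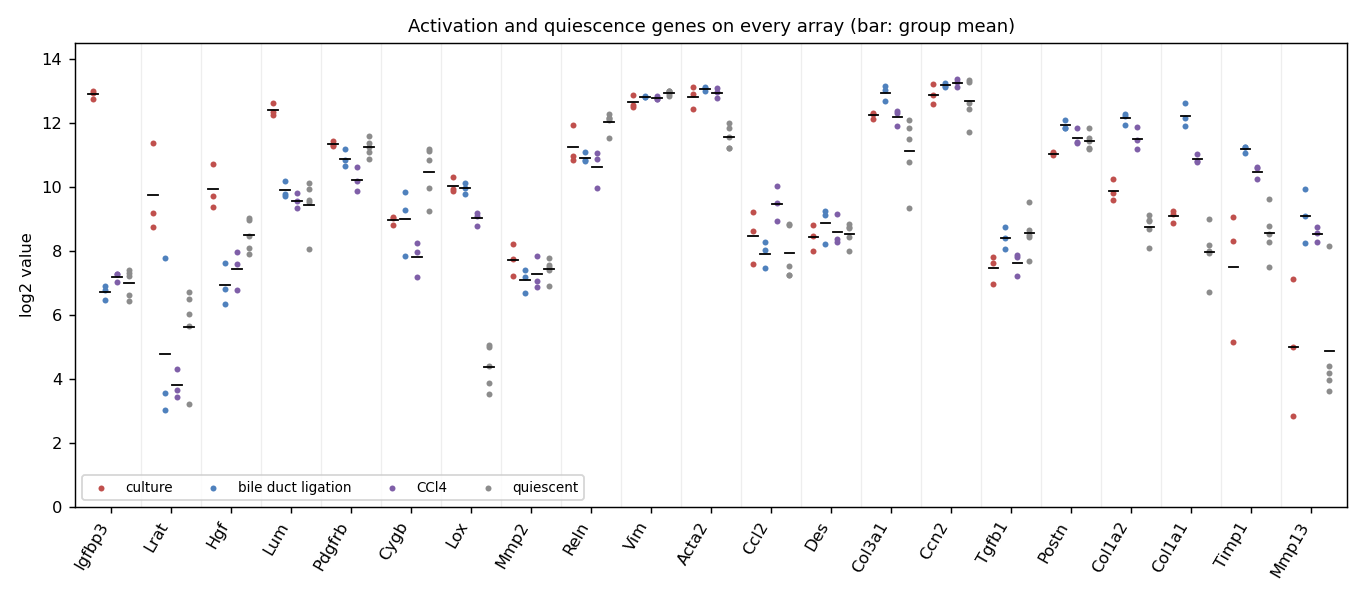
Log2 value (vertical) of the 21 tested activation and quiescence genes on every array, ordered from the most positive to the most negative difference, with culture, bile duct ligation, CCl4 and quiescent arrays from left to right in each gene and bars at group means. Acta2 and Lox overlap between culture and in vivo arrays, Igfbp3 is high in culture only, and Col1a1, Col1a2 and Timp1 are lowest in culture among the activated groups.

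Matrix genes moved in both directions. Of 27 tested collagens and matrix proteins, 9 were higher in culture (33.3%) and 12 lower (44.4%), so 21 of 27 differed. Lower in culture were Col1a1, Col1a2, the type VI collagen chain Col6a3 (difference -4.74 ± 0.38), tenascin C (Tnc, -2.12 ± 0.22), versican (Vcan, -2.84), thrombospondin 1 (Thbs1, -2.74) and fibronectin (Fn1, -1.42). Higher in culture were the small leucine-rich proteoglycans Ogn, Prelp (4.12 ± 0.42), lumican (Lum, 2.66 ± 0.33), decorin (Dcn, 1.08) and biglycan (Bgn, 0.70), which bind collagen fibres, and also Thbs2 (2.12), Col14a1 (1.86) and Col8a1 (1.40). Col6a3 read 4.06, 4.29 and 5.38 in culture, 9.67, 9.68 and 9.79 after bile duct ligation, 8.95, 9.12 and 8.69 after CCl4 and 7.07 to 9.34 in quiescent cells, so the culture arrays were lower than every array of the other groups. Col6a1 was lower by a smaller amount (-1.05) and Col6a2, the third chain, was not called (0.13).

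Elastic fibre genes also went both ways. Of 8 tested, Efemp1, Fbln5 and Emilin1 were higher in culture and Fbln2, Ltbp1, Ltbp2 and Ltbp4 were lower. Fbln5, needed to assemble elastic fibres, read 10.85, 10.45 and 11.04 in culture, 7.42, 6.85 and 8.23 after bile duct ligation and 7.44, 7.59 and 6.98 after CCl4 (difference 3.36 ± 0.31, adjusted p = 1.63e-06). Ltbp1, a protein that anchors latent TGF-beta in the matrix, read 2.81, 2.98 and 3.65 in culture, 6.21, 6.13 and 4.59 after bile duct ligation and 7.10, 6.87 and 6.55 after CCl4 (difference -3.09 ± 0.39, adjusted p = 2.26e-05). Of 11 tested basement membrane genes, 4 were higher in culture (Lama1, Col4a5, Nid2 and Lamb2) and 3 lower (Col15a1, Col4a2 and Col4a1). Col4a5 read 7.56, 7.58 and 7.56 in culture, 5.20, 5.36 and 4.50 after bile duct ligation, 7.26, 6.57 and 6.97 after CCl4 and 0.84 to 1.42 in quiescent cells. It was therefore at background only in quiescent cells and was also 1 of the 10 genes called between the injuries (-1.91 for bile duct ligation minus CCl4, adjusted p = 0.00894).

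Of 19 tested genes that process and cross-link collagen, 3 were higher in culture (15.8%) and 7 lower (36.8%). Loxl1, a lysyl oxidase linked to elastic fibres, read 3.02, 3.73 and 3.14 in culture, 7.12, 7.57 and 7.65 after bile duct ligation and 7.95, 7.43 and 8.27 after CCl4, with 3.54 to 4.32 in quiescent cells (difference -4.37 ± 0.24, adjusted p = 2.76e-08). The related enzyme genes Lox (not called) and Loxl3 (0.87, higher in culture) did not share that drop, and P4ha2, a collagen prolyl hydroxylase subunit, was higher (0.97). The procollagen C-proteinase enhancers went opposite ways, Pcolce at 1.61 ± 0.26 and Pcolce2 at -4.44 ± 0.50. Loxl1 and Pcolce2 passed the level filter only through the in vivo arrays, so they had to differ.

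Of 20 tested matrix-degrading enzymes and their inhibitors, 10 were lower in culture (50.0%) and 5 higher (25.0%). The urokinase system was lower, both Plau, the protease (difference -3.83 ± 0.36), and Plaur, its receptor (-2.92). So were the metalloproteinase genes Mmp3 (-2.68), Mmp10 (-2.38), Mmp12 (-3.23), Mmp13 and Mmp19 (-2.47) and the inhibitor genes Timp1 and Timp3 (-1.79). Higher in culture stood the inhibitor Timp2, with 12.68, 12.71 and 12.50 in culture, 11.51, 11.29 and 11.53 after bile duct ligation and 11.15, 11.38 and 11.37 after CCl4 (difference 1.26 ± 0.10, adjusted p = 7.01e-07). Reck, a membrane-anchored inhibitor (2.47 ± 0.22), and the aggrecanase gene Adamts5 (3.68 ± 0.34) were also higher.

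The contractile apparatus differed in its parts. Of 21 tested smooth muscle contractile genes 11 were lower in culture (52.4%) and 1 was higher (4.76%), with a median difference of -0.47 against -0.02 over all genes. Without culture replicate 3 the lower count was 8. The largest decreases were in Cnn1 (calponin, -3.11 ± 0.46), Lmod1 (an actin filament nucleator, -3.02 ± 0.37), Smtn (smoothelin, -2.53), Actg2 (gamma smooth muscle actin, -2.34) and Myh11 (smooth muscle myosin heavy chain, -1.69), while the abundant Acta2, Myl9, Mylk, Tpm2 and Cald1 were not called. Cnn1 and Lmod1 passed the level filter only through the in vivo arrays, so they had to differ. Lmod1 read 4.32, 3.62 and 3.31 in culture, 7.08, 6.14 and 7.32 after bile duct ligation, 6.10, 6.82 and 7.20 after CCl4 and 2.51 to 3.94 in quiescent cells, so culture and quiescent arrays overlapped. Srf, the transcription factor that drives many of these genes, was lower (-1.06). The exception, Itga8, an integrin subunit of stellate cells and myofibroblasts, read 9.76, 9.50 and 10.35 in culture, 6.49, 6.29 and 6.16 after bile duct ligation and 6.88, 7.14 and 6.21 after CCl4 (difference 3.34 ± 0.42, adjusted p = 2.26e-05). The 13 smooth muscle and pericyte markers, which share Cnn1, Actg2, Lmod1 and Myh11 with this list, summed to 502 to 541 in culture, 1060 to 1720 after bile duct ligation, 928 to 1790 after CCl4 and 1150 to 2230 in quiescent cells. Much of that sum was Rgs5, also among the stellate markers, with means of 8.35 in culture, 9.32 after bile duct ligation, 9.06 after CCl4 and 10.59 in quiescent cells. Cnn1, Actg2, Lmod1 and Myh11 had their lowest group means in quiescent cells, at 1.54, 3.71, 3.45 and 3.73.

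Adhesion genes that link the cytoskeleton to matrix were lower in 8 of 19 (42.1%) and higher in 4 (21.1%). Itga5, the fibronectin receptor subunit, was lower (-4.67), as were the focal adhesion genes Zyx (-1.78) and Tln1 (-1.10 ± 0.15), while the collagen receptor subunit Itga1 (1.86 ± 0.25), Itgb5 (1.40) and Itgb1 (0.61) were higher. Of 23 tested targets and partners of YAP and TAZ, coactivators that respond to stiffness, 7 were lower (30.4%) and 5 higher (21.7%), and the lower count was 4 without culture replicate 3. Ankrd1 read 10.03, 9.52 and 8.00 in culture, 12.37, 11.83 and 11.73 after bile duct ligation and 12.83, 12.79 and 12.50 after CCl4 (difference -3.16 ± 0.48, adjusted p = 9.89e-05). Ccn1 was also lower (-1.44), but Ccn2, another much-used target, was not called, and Igfbp3, which the list includes, had the largest increase.

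Cell cycle genes were lower in culture as a group. Of 17 tested, 15 were lower (88.2%) and 0 higher, with a median difference of -1.22, and the lower count was 14 to 17 when culture replicate 3, CCl4 replicate 3, or CCl4 replicate 3 together with bile duct ligation replicate 2 were left out. Mcm5, a subunit of the replicative helicase, read 6.94, 6.71 and 7.02 in culture, 9.83, 8.85 and 9.58 after bile duct ligation, 8.90, 8.76 and 8.81 after CCl4 and 6.93 to 7.96 in quiescent cells. Its culture arrays lay below every in vivo array and at or below the low end of the quiescent range (difference -2.23 ± 0.25, adjusted p = 8.73e-06), and Mcm2 (-1.81) and Mcm3 (-1.49) of the same helicase were lower too. Mitotic genes had another order, since for Top2a, Mki67 and Cdk1 the group means were 4.08, 4.19 and 6.21 in culture, 6.16, 5.89 and 7.27 after bile duct ligation, 6.17, 6.03 and 7.11 after CCl4 and 1.90, 2.27 and 2.74 in quiescent cells. Culture means thus lay above quiescent and below in vivo means in those mitotic genes. Top2a and Mki67, like Ccna2, passed the level filter only through the in vivo arrays. Their place below the in vivo cells was therefore fixed and is a description, and these 3 are among the 15 lower genes. Among 15 tested CDK inhibitors and p53 targets, 4 were higher in culture (26.7%), Cdkn2d (1.39), Trp53inp1 (1.11), Bbc3 (1.05) and Ccng1 (0.77), and 1, Cdkn2b, lower, while Cdkn1a (0.26) was not called.

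Promoter sequences are printed for the contractile and cell cycle genes with the largest called differences, to show the letters around the starts of genes of these groups. They are the 250 bases before and 50 after the annotated start from RefSeq on GRCm38.p6, 5′ to 3′ on the gene's strand, and capitals mark each CCAAT, each TTTGAA (the core of the cell cycle element CHR) and each CArG box, the binding element of serum response factor, on either strand, where ATTGG and TTCAAA are the reverse complements. None of the matches overlap. Cnn1 lies at chr9:22099003-22099302, Lmod1 at chr1:135324563-135324862, Itga8 at chr2:12301895-12302194 on the minus strand, Mcm6 at chr1:128359656-128359955 on the minus strand, Mcm5 at chr8:75109259-75109558 and Top2a at chr11:99024140-99024439 on the minus strand, the others being on the plus strand.
Itga8: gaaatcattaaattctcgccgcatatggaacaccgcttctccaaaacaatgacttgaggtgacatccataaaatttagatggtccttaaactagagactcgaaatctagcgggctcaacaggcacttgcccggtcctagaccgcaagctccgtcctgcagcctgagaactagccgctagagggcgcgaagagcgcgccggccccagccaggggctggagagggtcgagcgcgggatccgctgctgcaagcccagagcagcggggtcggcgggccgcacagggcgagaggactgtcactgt
Cnn1: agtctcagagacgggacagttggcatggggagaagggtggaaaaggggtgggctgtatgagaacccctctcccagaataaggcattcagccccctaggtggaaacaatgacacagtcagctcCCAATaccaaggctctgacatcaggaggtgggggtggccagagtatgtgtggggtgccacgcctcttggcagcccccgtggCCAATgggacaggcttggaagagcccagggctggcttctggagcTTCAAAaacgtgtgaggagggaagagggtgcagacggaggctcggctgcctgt
Lmod1: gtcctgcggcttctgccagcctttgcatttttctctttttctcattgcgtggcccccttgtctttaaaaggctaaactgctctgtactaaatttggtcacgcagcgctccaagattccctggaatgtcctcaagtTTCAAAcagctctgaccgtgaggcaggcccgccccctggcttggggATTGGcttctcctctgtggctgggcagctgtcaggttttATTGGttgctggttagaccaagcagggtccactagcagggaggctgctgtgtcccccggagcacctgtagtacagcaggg
Mcm6: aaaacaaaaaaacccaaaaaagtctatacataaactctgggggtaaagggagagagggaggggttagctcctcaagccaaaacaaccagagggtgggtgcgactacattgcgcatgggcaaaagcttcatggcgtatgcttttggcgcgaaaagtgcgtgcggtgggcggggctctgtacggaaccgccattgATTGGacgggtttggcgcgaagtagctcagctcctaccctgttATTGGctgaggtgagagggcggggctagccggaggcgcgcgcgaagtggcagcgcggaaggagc
Mcm5: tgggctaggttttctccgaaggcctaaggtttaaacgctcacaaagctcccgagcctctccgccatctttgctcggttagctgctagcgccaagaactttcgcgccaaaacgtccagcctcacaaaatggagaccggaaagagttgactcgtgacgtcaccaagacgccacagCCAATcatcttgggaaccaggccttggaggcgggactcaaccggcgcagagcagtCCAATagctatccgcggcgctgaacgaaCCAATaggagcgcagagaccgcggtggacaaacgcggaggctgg
Top2a: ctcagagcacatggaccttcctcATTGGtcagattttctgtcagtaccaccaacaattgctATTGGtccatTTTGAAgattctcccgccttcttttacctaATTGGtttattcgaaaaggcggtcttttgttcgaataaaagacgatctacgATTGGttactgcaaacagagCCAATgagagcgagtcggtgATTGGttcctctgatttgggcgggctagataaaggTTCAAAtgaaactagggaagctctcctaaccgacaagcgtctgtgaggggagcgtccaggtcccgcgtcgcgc
CCAAT occurred in 13 of the 14 tested cell cycle genes with an entry (92.9%), against 37.4% of all 32851 promoter windows of that length, and TTTGAA in 6 of 14 (42.9%), against 17.9%. The Top2a window held 6 CCAAT and 2 TTTGAA matches, Mcm5 held 3 CCAAT and Mcm6 2. Of the 18 contractile genes with an entry, 4 held a CArG box in this window (22.2%), against 1.63% of all windows. Those 4 were Cnn2, Myl9, Vcl and Srf, with differences of -0.47, 0.41, -0.17 and -1.06, and the 3 contractile windows printed held none. A match describes letters and is not evidence of binding.

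Genes tied to the quiescent, retinoid-storing state were higher in culture than after injury. Of 21 tested, 16 were higher (76.2%) and 1, Nes, lower, with a median difference of 1.30. Lrat, which esterifies retinol for storage, read 8.73, 9.17 and 11.36 in culture, 3.02, 3.54 and 7.77 after bile duct ligation, 3.65, 3.44 and 4.32 after CCl4 and 3.22 to 6.70 in quiescent cells. The culture arrays were the highest of all groups for Lrat, and bile duct ligation replicate 3 stood apart from the other in vivo arrays (difference 5.46 ± 0.95, adjusted p = 0.000313). Aldh1a1, a retinal dehydrogenase, read 11.80, 11.53 and 11.90 in culture, 6.98, 5.03 and 6.68 after bile duct ligation, 7.55, 7.35 and 8.34 after CCl4 and 6.56 to 8.45 in quiescent cells (difference 4.75 ± 0.43, adjusted p = 1.51e-06). Colec10, a secreted collectin of stellate cells, read 10.38, 11.17 and 12.17 in culture, 6.13, 5.42 and 5.37 after bile duct ligation, 5.69, 6.64 and 5.98 after CCl4 and 4.90 to 8.16 in quiescent cells (difference 5.37 ± 0.57, adjusted p = 4.95e-06). For these 3 genes culture exceeded quiescent cells too, whereas Reln and Cygb had their highest group means in quiescent cells, with ranges of 11.52 to 12.26 and 9.25 to 11.17, and were not called. Hgf, the hepatocyte growth factor made by stellate cells, read 9.38, 9.70 and 10.70 in culture, 6.81, 7.63 and 6.33 after bile duct ligation, 7.95, 7.58 and 6.76 after CCl4 and 7.91 to 9.04 in quiescent cells (difference 2.75 ± 0.36, adjusted p = 3.27e-05). Lpl (2.08), Fgfr2 (2.93 ± 0.26), Colec11 (3.23) and the guanylate cyclase subunit gene Gucy1b1 (1.39 ± 0.18) were further members higher in culture.

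Transcription factors of the stellate lineage followed the same direction, 14 of 22 higher (63.6%) and 2 lower (9.09%). Tcf21, a factor of mesenchymal development, read 12.16, 12.49 and 12.76 in culture, 10.07, 10.44 and 10.75 after bile duct ligation, 9.74, 10.37 and 10.18 after CCl4 and 9.73 to 11.04 in quiescent cells (difference 2.22 ± 0.26, adjusted p = 1.05e-05). Hlx (2.70 ± 0.24), Tbx20 (2.12), Hand2 (1.94), Lhx2 (1.30), which keeps stellate cells quiescent in mice, Foxf1 (1.26) and Ets1 (0.94 ± 0.10) were also higher in culture. Prrx1, a factor of activated fibroblasts, went the other way, at 5.48, 5.94 and 6.11 in culture, 7.51, 8.72 and 7.53 after bile duct ligation, 8.23, 8.02 and 8.86 after CCl4 and 3.83 to 4.84 in quiescent cells (difference -2.30 ± 0.30, adjusted p = 2.71e-05). Its culture arrays lay between the quiescent and the in vivo arrays.

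Signalling genes shifted within families. In the TGF-beta and BMP family 15 of 29 were higher in culture (51.7%) and 6 lower (20.7%), and the higher count was 11 without culture replicate 3. Among ligands, Bmp4 (2.49), Bmp5 (2.17 ± 0.24) and Gdf10 (1.86) were higher, while Inhba, the activin A subunit (-3.76), and Tgfb3 (-1.86) were lower and Tgfb1 was not called. Among receptors and coreceptors, the BMP receptor genes Bmpr1a (0.85) and Bmpr2 (0.87) and the TGF-beta receptor genes Tgfbr2 (0.56), Tgfbr3 (0.70) and Eng (0.94) were higher, and Tgfbr1 (-0.65) alone was lower among the tested receptors. The inhibitors and targets downstream of BMP signalling Smad6 (2.25), Smad7 (1.08 ± 0.18), Id3 (1.65 ± 0.27) and Bambi (1.41) were higher, while the BMP targets Id1 (-1.06, adjusted p = 0.0632) and Id2 (0.29) were not called. The TGF-beta-induced matrix gene Tgfbi was higher (2.75) and the secreted BMP antagonist Grem1 was lower (-3.02). Id3 read 11.38, 11.42 and 11.15 in culture, 9.66, 9.45 and 9.92 after bile duct ligation, 9.21, 9.75 and 10.05 after CCl4 and 9.52 to 11.09 in quiescent cells.

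Among growth factor genes, Angpt1, Pdgfd and Vegfd passed the level filter only through the culture arrays. They had to differ, so their differences and p-values are descriptions, and they are 3 of the 8 higher members counted below. Angpt1, a ligand of the endothelial receptor Tie2, read 7.31, 7.28 and 8.20 in culture, 1.20, 1.08 and 1.19 after bile duct ligation, 1.21, 1.74 and 1.77 after CCl4 and 1.43 to 2.68 in quiescent cells (difference 6.23 ± 0.33, adjusted p = 2.26e-08). Pdgfd, a ligand of the PDGF receptor beta, read 7.11, 7.08 and 7.39 in culture, 1.97, 1.61 and 1.84 after bile duct ligation and 1.59, 1.90 and 1.61 after CCl4 (difference 5.44 ± 0.25, adjusted p = 7.89e-09). Vegfd (4.56) and the receptor gene Pdgfrb (0.79 ± 0.17) were also higher in culture, within a list of 21 of which 8 were higher (38.1%) and 5 lower (23.8%). The lower ones were Igfbp4 (-3.44), Hbegf (-3.38), Fgfr1 (-3.26), Egfr (-1.18) and Kitl (-0.62). Of 17 tested Wnt, Notch and Hedgehog genes 7 were higher (41.2%) and 2, Jag1 and Notch2, lower (11.8%), with the hedgehog antagonist gene Hhip (2.72) and the Wnt receptor gene Fzd8 (1.38) among the higher ones. Rspo3, which potentiates Wnt signals, read 11.05, 11.08 and 11.51 in culture, 8.92, 9.04 and 9.73 after bile duct ligation, 8.25, 9.68 and 9.58 after CCl4 and 11.26 to 11.72 in quiescent cells (difference 2.01 ± 0.27, adjusted p = 3.56e-05), so culture arrays overlapped the quiescent range and in vivo arrays lay below it.

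Chemokines and cytokines were lower in culture in 9 of 14 tested (64.3%), with 1 higher (7.14%) and a median difference of -1.63. Tslp, a cytokine that acts on dendritic cells, read 3.70, 4.01 and 3.19 in culture, 10.29, 7.75 and 8.51 after bile duct ligation, 9.88, 10.38 and 8.72 after CCl4 and 5.93 to 7.57 in quiescent cells (difference -5.62 ± 0.51, adjusted p = 1.44e-06). Il33, an alarmin released by damaged cells, read 4.43, 3.32 and 2.59 in culture, 7.54, 9.09 and 7.56 after bile duct ligation, 7.60, 7.63 and 7.51 after CCl4 and 5.50 to 8.82 in quiescent cells (difference -4.38 ± 0.61, adjusted p = 4.97e-05). Both were thus low only in culture. The neutrophil-attracting chemokine genes Cxcl1 (-2.24), Cxcl2 (-3.02) and Cxcl5 (-3.61 ± 0.53) were lower as well. Il6, at 9.04, 7.77 and 2.79 in culture, and Ccl2 were not called. Among 19 tested NF-kB targets 7 were lower (36.8%), led by Lcn2 (-5.50 ± 0.53), Saa3 (-3.80 ± 0.59), Ptgs2 (-3.49) and Tnfaip2 (-3.42 ± 0.37), and 3 were higher (15.8%), Nfkbie (1.45 ± 0.29), Icam1 (1.42) and Tnip1 (0.71). Of 10 complement and acute phase genes 4 were lower (40.0%) and 3 higher (30.0%), among them Masp1 (2.09 ± 0.16) and C2 (2.63 ± 0.30). The macrophage marker sums given above were higher on most in vivo than culture arrays, and were 154 to 306 on quiescent arrays. Against quiescent cells, 8 of the 14 chemokine and cytokine genes were lower in culture and 2 higher. The part of macrophages in these inflammatory genes was not tested.

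Interferon response genes went the other way. Of 30 tested, 19 were higher in culture (63.3%) and 0 lower, with a median difference of 1.39. The culture arrays did not form 1 level, for the median of the 30 genes was 9.49, 9.91 and 6.87 in culture, 6.13, 5.90 and 7.08 after bile duct ligation, 7.39, 8.15 and 7.45 after CCl4 and 7.08 to 8.74 in quiescent cells. Culture replicate 3 therefore lay within the in vivo range and culture replicates 1 and 2 above it. Rsad2, an antiviral enzyme, read 9.31, 9.77 and 3.27 in culture, 3.46, 3.62 and 3.70 after bile duct ligation and 5.37, 6.41 and 5.33 after CCl4. Cxcl10, an interferon-induced chemokine, kept all culture arrays above all in vivo arrays, at 9.87, 10.82 and 6.06 in culture, 4.32, 3.47 and 4.07 after bile duct ligation and 5.24, 5.38 and 4.64 after CCl4 (difference 4.40 ± 0.71, adjusted p = 0.000175). The count of higher members was 29 without culture replicate 3 and 11 without either culture replicate 1 or culture replicate 2. It was 16 without CCl4 replicate 3 and 13 without that array and bile duct ligation replicate 2. B2m, the light chain of MHC class I, read 12.95, 13.01 and 12.94 in culture, 12.03, 12.06 and 12.53 after bile duct ligation and 11.93, 12.42 and 11.94 after CCl4 (difference 0.81 ± 0.12, adjusted p = 7.90e-05). Gbp2 and Gbp6, guanylate-binding proteins, also had all culture arrays above all in vivo arrays, with differences of 2.18 ± 0.31 for Gbp2 and 4.00 ± 0.52 for Gbp6. Psmb9, an immunoproteasome subunit, was higher by 2.65.

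**Figure D5:**
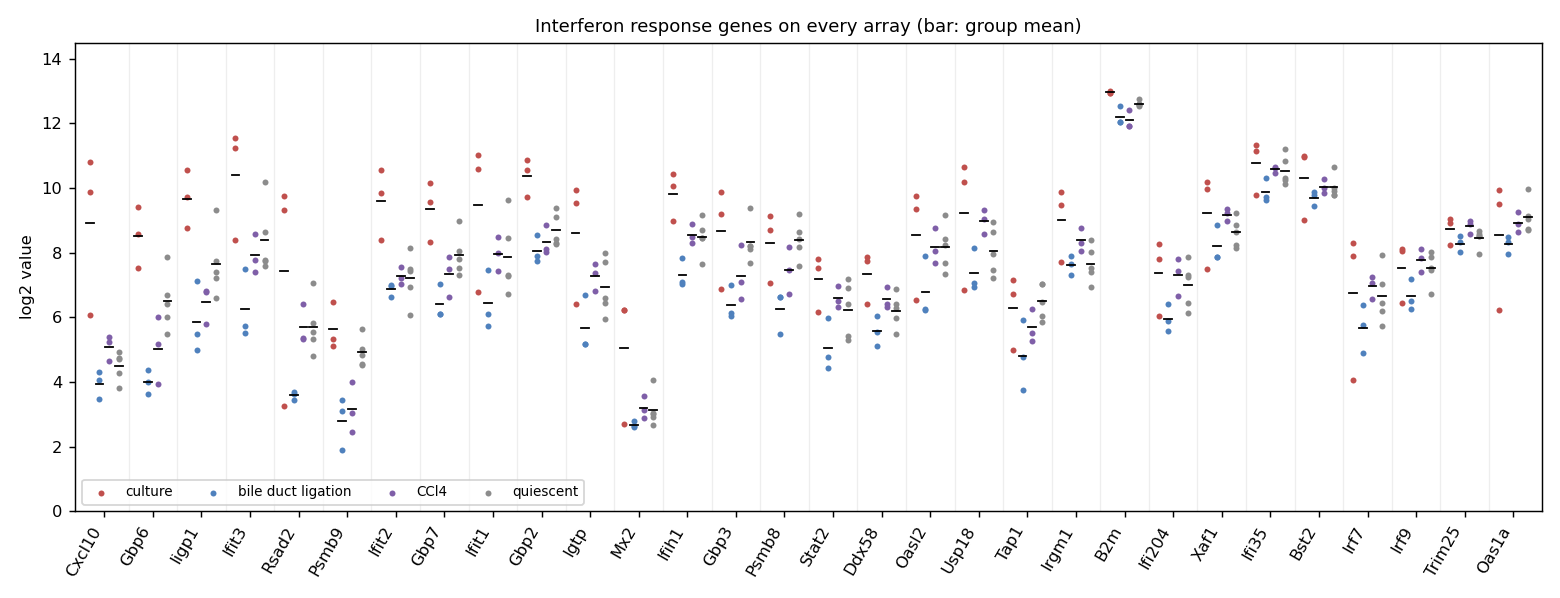
Log2 value (vertical) of the 30 tested interferon response genes on every array, ordered from the most positive to the most negative difference, with culture, bile duct ligation, CCl4 and quiescent arrays from left to right in each gene and bars at group means. Culture replicate 3 is the lowest culture point for all 30 genes, as for Rsad2 at 9.31, 9.77 and 3.27.

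The glutathione and NRF2-linked list had 16 of 33 lower in culture (48.5%) and 9 higher (27.3%), with a median difference of -0.55. Gsta2, a glutathione transferase, read 2.01, 2.34 and 2.31 in culture, 8.22, 7.77 and 7.03 after bile duct ligation, 9.35, 8.90 and 9.13 after CCl4 and 7.61 to 9.09 in quiescent cells (difference -6.18 ± 0.32, adjusted p = 1.80e-08). Alpha-class transferases are near-identical copies that probes may not separate. Gsta3 (-3.54), Nqo1 (-2.90), Srxn1 (-2.69), Gclm (-1.89), Gclc (-1.55), Hmox1 (-1.71), Txn1 (-0.97 ± 0.07) and Taldo1 (-2.15 ± 0.12) were lower too, whereas Nfe2l2, which encodes NRF2 itself, was slightly higher (0.44). Taldo1, an enzyme of the pentose phosphate pathway, read 9.30, 9.53 and 9.11 in culture, 11.42, 11.27 and 11.17 after bile duct ligation, 11.68, 11.62 and 11.59 after CCl4 and 11.37 to 11.93 in quiescent cells, so in vivo and quiescent cells shared a level that culture cells lay below. Higher in culture were Gstt1 (3.82), Mgst3 (2.46) and Gpx3 (2.32).

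Immediate early and heat shock genes, which are induced quickly by many stimuli, were mostly not called (23 of 32). In culture 7 were lower (21.9%), a share under the 26.2% of all genes, and 2 were higher (6.25%), against 25.0%. Fosl1 read 5.33, 3.68 and 3.29 in culture, 7.73, 7.56 and 7.74 after bile duct ligation, 9.01, 9.04 and 8.61 after CCl4 and 7.25 to 10.36 in quiescent cells (difference -4.18 ± 0.55, adjusted p = 3.27e-05). All arrays plated for 24 h, quiescent ones included, lay above all culture arrays for Fosl1, and likewise for Dusp4 (-3.31 ± 0.39), Dusp5 (-3.87 ± 0.75) and Hsph1 (-1.61 ± 0.13). Fos, Jun and Egr1 were not called (-0.44, 0.24 and -0.62). Of 26 tested genes of the unfolded protein response 10 were lower in culture (38.5%) and 2 higher (7.69%), among them Creld2 (-1.39 ± 0.14), Hyou1 (-1.13 ± 0.12) and Manf (-0.94 ± 0.15), while the chaperone genes Hspa5 and Hsp90b1 were not called.

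Lysosomal genes were higher in culture in 19 of 30 (63.3%) and lower in 3 (10.0%), with a median difference of 0.56 over the list. Hexa, a subunit of hexosaminidase, read 11.62, 11.60 and 11.76 in culture, 10.18, 10.17 and 10.57 after bile duct ligation, 10.17, 10.40 and 10.27 after CCl4 and 10.52 to 10.88 in quiescent cells (difference 1.37 ± 0.11, adjusted p = 4.34e-07). Ctsf, a cysteine protease, had the largest difference of the list (3.19 ± 0.27, adjusted p = 9.25e-07), with 5.20, 5.38 and 5.70 in culture, 2.33, 2.45 and 2.00 after bile duct ligation and 2.39, 1.94 and 2.30 after CCl4, and it passed the level filter only through the culture arrays. Man2b1 (1.62), Asah1 (1.48 ± 0.17), Lamp2 (0.91 ± 0.11) and Ctsd (0.82) were higher too. The 3 lower members were Npc1 (-0.47) and 2 genes also used as macrophage genes, Ctss (-3.13) and Cd68 (-2.96). Cd68 had means of 3.74 in culture, 6.34 after bile duct ligation, 7.06 after CCl4 and 7.02 in quiescent cells. For Ctss the means were 3.52, 7.47, 5.83 and 3.11 in the same order. Of 22 tested genes of cholesterol and fatty acid synthesis and uptake 7 were higher (31.8%), among them the sterol synthesis genes Nsdhl (1.00) and Sc5d (0.87), and 3, Scd1, Abca1 and Fasn, lower (13.6%). That higher count was 4 without culture replicate 1, 4 without CCl4 replicate 3 and bile duct ligation replicate 2 together, and 11 without bile duct ligation replicate 3 or without quiescent replicate 3. Glycolysis and hypoxia genes were split, with 6 of 23 higher (26.1%), led by Adm (2.37) and Bnip3 (1.70 ± 0.20), and 5 lower (21.7%), led by Egln3 (-2.92 ± 0.37) and Hk2 (-2.71 ± 0.51) and including the pyruvate kinase gene Pkm (-1.40).

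All 10 genes called between the injuries were lower after bile duct ligation than after CCl4. Culture was not called against bile duct ligation for 6 of them and not called against CCl4 for 2, comparisons that share the culture arrays. S100a4, a calcium-binding protein of motile cells, had means of 5.73 ± 0.56 in culture, 5.82 ± 0.22 after bile duct ligation and 9.09 ± 0.65 after CCl4 (SD, n = 3 each), so culture differed from CCl4 (-3.36) but was not called against bile duct ligation (-0.08, adjusted p = 0.87). Plscr2, a phospholipid scramblase, had means of 7.09 ± 0.52 in culture, 3.61 ± 0.24 after bile duct ligation and 6.58 ± 0.49 after CCl4, so it was called against bile duct ligation (3.48) but not against CCl4 (0.51, adjusted p = 0.222). The remaining ones included the hepatocyte fetal gene Afp and the mesothelial gene Bnc1, both below log2 4 on average in culture and after bile duct ligation, for which the non-stellate markers of CCl4 replicate 3 stand beside the value.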

How the data were processed

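The authors deposited log2 expression values for 45101 probe sets of an Affymetrix mouse genome array on 16 arrays. Per the submitters' processing notes GCRMA was used, with version and settings not given in the sources used here. Values ran from 0.04 to 13.88, array medians from 2.00 to 2.06, and no detection calls were used. Precision is limited by how many arrays each group has. The 64 control probe sets, the 932 with several symbols and the 9160 with none were left out, and symbols were checked through Entrez IDs (34741 of 34945 matched). For each of 18193 genes the brightest probe set on average over 14 arrays (no coculture) was kept, and the 7713 genes at log2 5 or more on at least 2 arrays were tested with limma 3.58.1 in R 4.3.3. One mean per group, moderated variances with an intensity trend, two-sided tests and a Benjamini-Hochberg threshold of 0.05 were used. The fit was tested on simulated data.

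Members and gene lists were chosen with earlier results of these data known. Named genes are the 15 largest increases and decreases without overlap between culture and in vivo arrays, the 4 smallest p-values per list among 26 lists, and all activation genes. Other members named beside a count were chosen after their values were seen. Of 968 genes asked for in the lists and in 12 marker lists, 68 were unmatched. Alternatives were other array sets, a replicate block, filters, probe set averaging, median centring, array weights, other variance models and leaving out each array. Leaving out CCl4 replicate 3 and bile duct ligation replicate 2 together was chosen after seeing the data.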

Additional observations from a re-analysis of the deposited data

Results flagged for a closer look

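In the 5 quiescent arrays, 8 of 132 named genes had 1 array far from the other 4 by Dixon's gap test, a pattern that chance gives for about 1 in 20 groups. Quiescent replicate 4 was the distant array for 5 of them. It was low for Efemp1 (8.03, others 9.17 to 9.51), Reln (11.52, others 12.07 to 12.26), Id3 (9.52, others 10.65 to 11.09) and Fgfr2 (8.95, others 9.83 to 10.08), genes higher in culture than in vivo except Reln, which was not called. The same array was high for the collagenase gene Mmp13 (8.16, others 3.61 to 4.38), just below the lowest in vivo array (8.23). Quiescent replicate 1 was the distant array for the other 3 genes, low for Tslp (5.93, others 7.39 to 7.57) and slightly high for Txn1 (12.18, others 12.00 to 12.04) and Sec61b (10.20, others 9.83 to 9.93). These arrays are not part of the culture against in vivo difference itself, but they enter the estimate of spread, the choice of probe set and the level filter.

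Culture differed unequally from bile duct ligation and CCl4 in 10 genes, by the direct limma test between the injuries. Bile duct ligation minus CCl4 was -4.49 for Afp, -3.69 for Baiap2l1, -3.59 for Bnc1, -3.27 for S100a4, -2.99 for Prkg2, -2.97 for Plscr2, -2.45 for Sema3a, -2.30 for Rnd1, -2.17 for Htra1 and -1.91 for Col4a5. Adjusted p ran between 0.000673 for Baiap2l1 and 0.0431 for Prkg2 and Rnd1. The summed hepatocyte, epithelial and mesothelial markers were highest on CCl4 replicate 3, and their part in these differences was not tested.

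Probe sets with several gene symbols or none were outside the gene-level comparison. Of 1072 of them past the same filter, 611 were called between culture and in vivo (57.0%), with 223 higher and 388 lower in culture.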

How the results depend on the processing

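The counts of genes called between culture and in vivo activation kept within 1.5 times of their values under the 26 alternatives run, apart from the count with at least a 2-fold difference, which was 1037 with the filter at log2 7, where fewer genes were tested. Leaving out each array in turn gave 3235 to 4134 called genes, 1573 to 2024 higher and 1644 to 2110 lower in culture, 1467 to 1787 called at 2-fold or more, 2930 to 3770 called against bile duct ligation and 2682 to 3590 against CCl4. Between bile duct ligation and CCl4 the count was less stable, 3 to 21 when 1 array was left out. It was 3 without bile duct ligation replicate 3, 4 without CCl4 replicate 3, 5 without CCl4 replicate 1 and 21 without quiescent replicate 4, against 10 with all arrays. It was 22 with only the 9 compared arrays, 47 with no filter, 4 with the filter at log2 7, 6 with log2 5 on 3 arrays, 19 with probe sets averaged, 180 with array weights, 16 with no variance trend and 6 with an unmoderated model. The cause was not tested, and the estimation of array weights stopped before it converged.

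Deviations from the group mean correlated at -0.26 to 0.28 between samples that share a replicate number. Groups had 3 to 5 arrays and pairs with unlike numbers were not compared. These values therefore cannot show whether the numbers pair samples. With the replicate block 3912 genes were called, 1920 higher and 1992 lower, with 1639 at 2-fold or more, 3549 against bile duct ligation, 3348 against CCl4 and 6 between the injuries.

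None of the 121 called named genes lost its call in a setting that tested it. Of the 132 named genes, 124 kept their direction and side of the threshold wherever they were tested. Genes such as Ctsf, at most log2 5.70, were not tested with the filter at log2 7 and could not lose a call there. Ccl2, not called at -0.22, was 0.25 with array weights, and ranged between -0.60 without culture replicate 2 and 0.22 without culture replicate 3. Among the genes not called, Lox was called with only the 9 compared arrays, the replicate block, averaged probe sets or array weights (0.50 to 0.57). Mmp2 was called higher with the replicate block (0.55), averaged probe sets (0.72), array weights (0.50), without culture replicate 1 (0.80), without CCl4 replicate 3 (0.69) and without that array and bile duct ligation replicate 2 (0.77). Called lower were Vim with averaged probe sets (-0.36), array weights (-0.23) and without culture replicate 3 (-0.26), Tgfb1 with array weights (-0.99), Col3a1 and Ccn2 with only the 9 compared arrays (-0.33 each) and Acta2 with averaged probe sets (-0.82). Averaging probe sets moved Actn1 to -1.74, Axl to -0.70, Fbln2 to -3.15, Fbln5 to 1.87, Loxl1 to -2.52, Mcm6 to -1.55, Myof to -0.89, Notch2 to -0.43, Rspo3 to 1.28 and Sdc1 to -3.68, and array weights moved Timp1 to -2.08 and Mmp13 to -2.35. The count of interferon genes higher in culture was 30 with array weights. With the same weights, lower YAP and TAZ targets were 13 rather than 7, and higher CDK inhibitors and p53 targets 9 rather than 4. That last count was 8 with only the 9 compared arrays and 2 with the filter at log2 7. In small counts, lower lineage factors were 1 rather than 2 when any single culture or bile duct ligation array was left out, or CCl4 replicate 2 or 3, higher unfolded protein response genes 1 rather than 2 without culture replicate 2, Nes was not called without culture replicate 2 or 3, and higher collagen processing genes were 5 rather than 3 without bile duct ligation replicate 3. Where a level is near background, the size of a difference is poorly known, since no detection calls were used.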

Other observations

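Several of the genes furthest apart belong to none of the gene groups described. Shisa2, an inhibitor of Wnt and FGF receptor maturation, read 9.45, 9.77 and 9.57 in culture, 2.51, 1.68 and 2.61 after bile duct ligation, 2.07, 2.74 and 2.52 after CCl4 and 1.97 to 4.33 in quiescent cells, so it was high on the culture arrays alone. The ephrin receptor gene Epha3 read 6.95, 7.53 and 7.80 in culture, 2.03, 2.15 and 2.73 after bile duct ligation, 1.61, 2.11 and 1.98 after CCl4 and 1.48 to 3.60 in quiescent cells. Cyp27a1, a sterol hydroxylase of mitochondria, read 6.79, 7.46 and 9.38 in culture, 3.00, 2.97 and 3.09 after bile duct ligation, 3.27, 2.42 and 2.87 after CCl4 and 3.19 to 4.75 in quiescent cells. By limma over all genes tested their differences were 7.24 ± 0.42 for Shisa2 (adjusted p = 3.43e-08), 5.32 ± 0.40 for Epha3 (adjusted p = 2.81e-07) and 4.94 ± 0.46 for Cyp27a1 (adjusted p = 1.66e-06). These genes passed the level filter only through the culture arrays and so had to differ, which makes their p-values descriptions. Mamdc2 differed from these in its quiescent level, with 8.64, 9.08 and 10.56 in culture, 2.98, 2.90 and 3.75 after bile duct ligation, 3.63, 5.02 and 4.70 after CCl4 and 6.52 to 8.26 in quiescent cells.

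On the lower side, Hspb7, a small heat shock protein of muscle, read 1.88, 1.99 and 1.52 in culture, 6.58, 5.96 and 6.59 after bile duct ligation, 7.71, 7.34 and 7.21 after CCl4 and 1.36 to 2.03 in quiescent cells (difference -5.10 ± 0.24, adjusted p = 9.04e-09). Sdc1, a heparan sulfate proteoglycan of epithelial and plasma cells, read 2.01, 2.89 and 2.22 in culture, 7.74, 10.25 and 7.99 after bile duct ligation, 7.81, 7.14 and 8.18 after CCl4 and 3.29 to 4.57 in quiescent cells. Slpi, a secreted protease inhibitor of epithelia, read 2.31, 1.99 and 1.88 in culture, 4.58, 7.77 and 6.26 after bile duct ligation, 8.08, 7.71 and 9.37 after CCl4 and 1.94 ± 0.41 on average in quiescent cells (SD, n = 5), highest on the array with the highest epithelial marker sum. All 3 genes were near background in culture and were raised on every in vivo array. They passed the level filter only through the in vivo arrays, so they had to differ.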
